A study of Mus musculus with 9 samples.

Results

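The excitatory dorsal interneurons (INs) of the spinal cord are named here by 10 transcription factor genes that mark or specify them, *Lbx1*, *Tlx1*, *Tlx3*, *Lmx1a*, *Lmx1b*, *Barhl1*, *Barhl2*, *Lhx2*, *Lhx9* and *Phox2a*. The genes were taken by name, with earlier results of these data known. Of the 10, 9 were among the 22180 genes that could be tested, each through 1 array feature. The only feature annotated to *Phox2a*, a homeobox gene of autonomic and of some dorsal projection neurons, was shared with *Inppl1*, so no value is given for it. Spinal cords dissected at e11.5 from control mouse embryos (n = 5 arrays) and from *Hnf6-/-;Oc2-/-* embryos, called OC mutant (n = 4 arrays), were compared on Affymetrix MoGene 2.0 ST arrays. The mutants carry no functional copy of *Hnf6* (*Onecut1*) or *Oc2* (*Onecut2*) in any tissue. The genotype of the controls is not detailed further in the labels. The series description counts 1 mutant embryo more, which is not analysed here. Each array was taken as 1 embryo.

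Neurons of the dorsal spinal cord are born in stacked progenitor domains below the roof plate, and each class switches on its own homeobox genes as it leaves the ventricular zone. The most dorsal class arises from *Atoh1*-expressing progenitors and uses *Barhl1*, *Barhl2*, *Lhx2* and *Lhx9*. More ventral classes express *Lbx1*, and among these *Tlx1*, *Tlx3* and *Lmx1b* mark glutamatergic sensory relay neurons whereas *Pax2* and *Ptf1a* mark GABAergic ones. Onecut factors, homeodomain proteins with a cut domain, are present in several spinal neuron classes. The comparison asked whether the dorsal excitatory genes had other levels without them.

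No difference was detected at this number of arrays. None of the 9 genes passed the adjusted p of 0.05 (limma, Benjamini-Hochberg over 22180 genes; 0.0225% of all genes passed), with adjusted p-values from 0.522 to 0.998. At an unadjusted p under 0.05 the count was again 0 of 9, against 9.74% of all genes, and the exact permutation test gave 0 as well. The number of the 9 genes whose control and mutant arrays did not overlap was 0, against 3.94% of all genes. At an unadjusted p under 0.1 there were 3 genes, *Lhx2*, *Lbx1* and *Tlx3*, all with a lower mean in mutants, where 16.9% of all genes met that limit. The median log2 fold change (mutant minus control) was −0.17 over the 9 genes and 0.00 over all genes. Of the 9 values, 5 were below 0, and 7 were when the arrays were quantile normalized or centred on their medians. Among all genes 48.7% were below 0. Because whole cords were used, fewer cells of a class and less RNA per cell cannot be told apart.

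**Figure D1:**
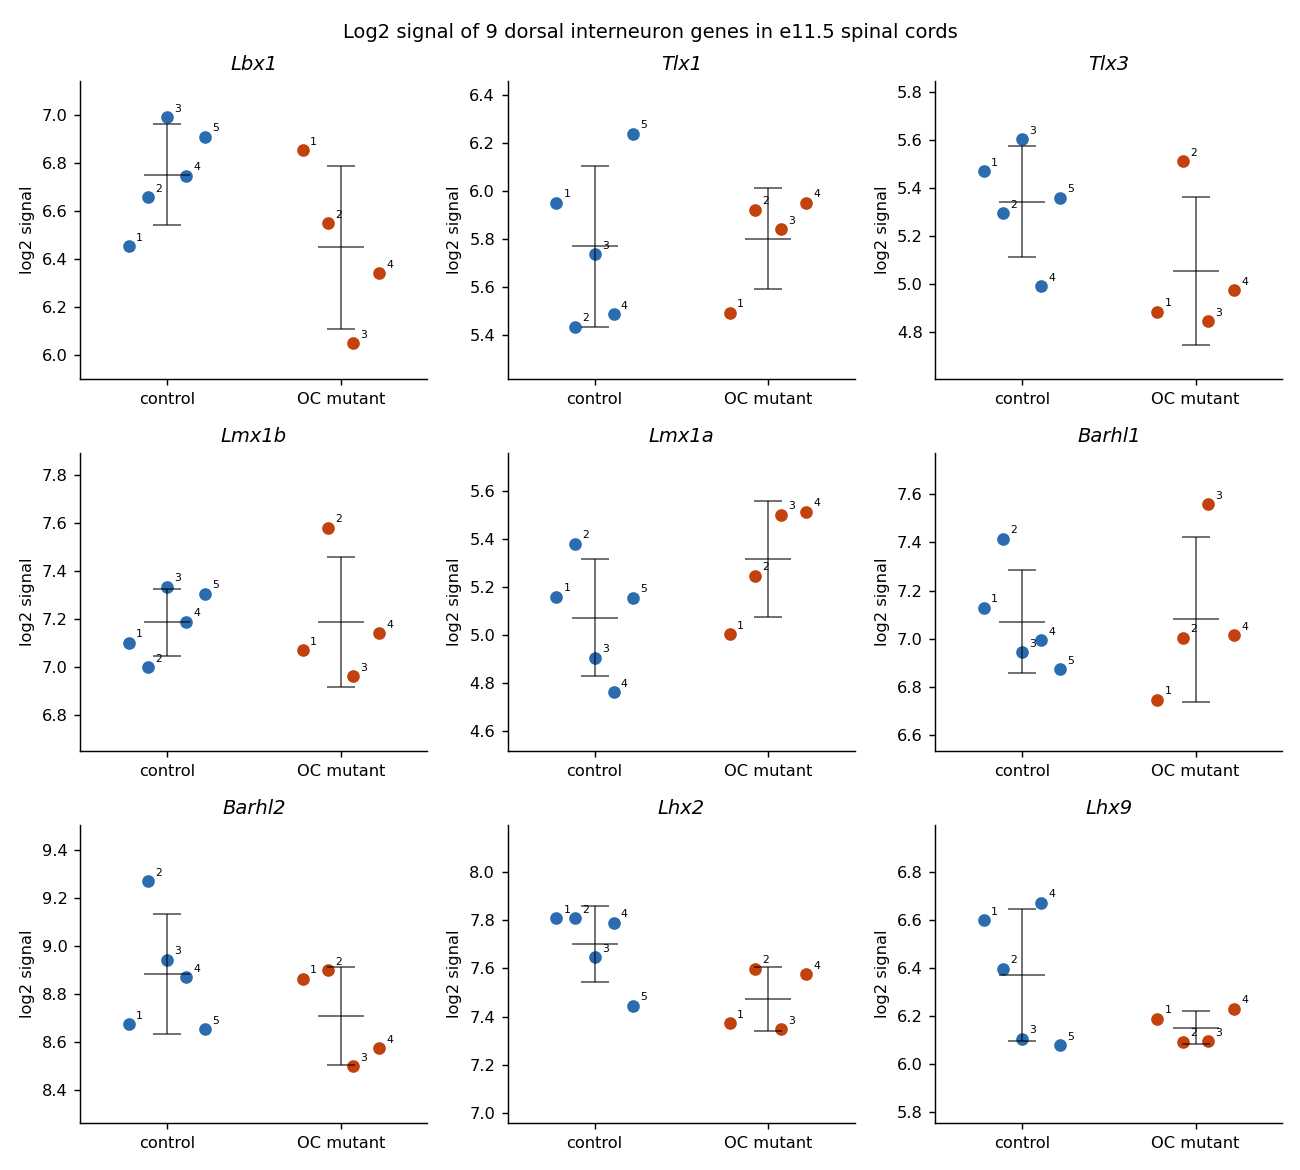
Log2 signal (vertical axis, a span of equal size in every panel) of the 9 measured genes in control (blue, n = 5) and OC mutant (orange, n = 4) spinal cords. Each point is 1 array with its replicate number, and the lines give the mean and SD. The 2 groups overlap in every panel.

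The mutated genes and the makeup of the cords were looked at first. *Onecut2* was at 7.68, 8.01, 7.66, 7.88 and 7.52 in controls 1 to 5 and at 6.57, 6.67, 7.21 and 7.18 in mutants 1 to 4, and *Onecut1* was at 7.24, 7.78, 7.05, 7.37 and 7.18 in controls and at 7.27, 7.13, 7.29 and 7.17 in mutants. Every mutant was below every control for *Onecut2*, while the *Onecut1* groups overlapped; whether these features lie in the deleted parts was not examined. *Onecut3*, the third gene of the family, was at 6.85 to 7.35 in controls and 6.17 to 6.42 in mutants. Array medians were between 5.23 and 5.31. Control 1 and mutant 3 had the lowest mean of 13 pan-neuronal genes (9.81 and 9.75, the other arrays 9.98 to 10.40), and control 1 the highest mean of 16 mesenchymal genes (6.88, the others 5.71 to 6.39). Control 1 also had the lowest mean of 13 spinal cord genes, Hox genes among them (6.90, the others 7.09 to 7.60). The mean of 12 sensory ganglion genes was 7.27 to 7.48 in controls and 7.19 to 7.24 in mutants, so these groups did not overlap. The largest differences in the list were those of *Prph* (log2 fold change −0.76, SE 0.15) and *Sncg* (−0.58, SE 0.08). No other gene of the list had every mutant below every control, and the groups were separate for 3.94% of all genes. The list mean without *Prph* and *Sncg* was not computed. The mean of 3 Y-linked genes was low in controls 2 and 3 (3.52 and 3.77) and between 8.10 and 8.32 in the other 7 arrays. Sex is not given in the labels. A low Y-linked signal is that of female embryos, and both arrays with it are controls, so sex was not balanced between the groups.

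*Lbx1* (feature 17365193) encodes the homeodomain factor that sets the more ventral dorsal classes apart from the dorsalmost ones. Its log2 signal was 6.46, 6.66, 6.99, 6.75 and 6.91 in controls 1 to 5 and 6.85, 6.55, 6.05 and 6.34 in mutants 1 to 4. Mutants 3 and 4 lay below all controls and mutants 1 and 2 lay inside the control range. The means were 6.75 ± 0.21 (SD, n = 5) and 6.45 ± 0.34 (SD, n = 4). The log2 fold change was −0.30 (SE 0.16, 95% interval −0.65 to 0.05), or 0.811-fold, with an adjusted p of 0.568 in limma and an exact two-sided permutation p of 0.135. It was −0.17 without mutant 3, the array with the lowest pan-neuronal mean, and also −0.17 with that mean as a covariate. It was −0.38 without control 1, the other array with a low pan-neuronal mean, and −0.44 without mutant 1 (unadjusted p = 0.0378 and 0.0140, adjusted p = 0.527 and 0.526 in limma).

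*Tlx3* (feature 17261569), a selector of the glutamatergic over the GABAergic fate, showed a mean difference of like size. It was at 5.47, 5.29, 5.60, 4.99 and 5.36 in controls and at 4.88, 5.51, 4.85 and 4.97 in mutants. Of the 4 mutants, 3 were below every control, and mutant 2 was close to the highest control. The log2 fold change was −0.29 (SE 0.16, 95% interval −0.63 to 0.05), or 0.819-fold, with an adjusted p of 0.578 in limma and an exact permutation p of 0.151. Without mutant 2 it was −0.44, and the gene still did not pass the adjusted p (range over 20 alternative settings, 0.360 to 0.930). *Tlx3* is also transcribed in sensory ganglia, and the mean of the sensory ganglion list was lower in every mutant than in every control. Of its 12 genes 11 were below 0, 3 of them at an unadjusted p under 0.05 and 1, *Sncg*, past the adjusted p (−0.58, adjusted p = 0.0357 in limma). The list was chosen with earlier results of these data known. *Sncg* is among the genes the authors reported from these arrays, but its adjusted p in their list did not pass the limit used here. Their result and the present one come from the same arrays, so the passing of *Sncg* is not an independent result. Why the outcomes differ was not tested. Of the 13 pan-neuronal genes 11 were below 0 as well and 3 were lower at an unadjusted p under 0.05, where 4.93% of all genes were, and the medians of the lists were −0.13 and −0.14. *Tubb3* is counted in both lists. The part of ganglion tissue in the *Tlx3* values was not tested.

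*Tlx1* (feature 17359825), the paralogue that acts in overlapping neurons, had a mean difference near 0. Controls were at 5.95, 5.44, 5.74, 5.49 and 6.24 and mutants at 5.49, 5.92, 5.84 and 5.95. All 4 mutants lay inside the control range, with controls 2 and 4 and mutant 1 at its lower end. Between the means the log2 fold change was 0.03 (SE 0.17, 95% interval −0.33 to 0.40, adjusted p = 0.976 in limma, exact permutation p = 0.833). *Tlx1* and *Lbx1* are neighbours on chromosome 19 with 0 annotated genes between them. The difference between the changes of *Tlx1* and *Tlx3* was 0.32 on the log2 scale (95% interval −0.15 to 0.79, exact permutation p = 0.119), so the paralogues were not shown to differ, and a difference of up to 0.79 lay within the interval.

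The promoter of *Tlx1* is shown because it was the only one of the promoter windows searched to hold the core letters that Onecut proteins bind. Windows of 250 bases before to 50 after the transcript start were taken from RefSeq (GRCm38.p6), 11 for 9 of the 10 genes (*Phox2a* included, *Lbx1* not searched), and were read on both strands. ATTGAT was present in 1 of the 11 windows and in 7.54% of 32851 windows of all genes, and ATCGAT in 0 of the 11 and 0.925% of all. The stretch of *Tlx1*, 42 to 37 bases upstream of the start at the capitals, which mark ATTGAT, lies at chr19:45150653-45150698 on the plus strand.
Tlx1: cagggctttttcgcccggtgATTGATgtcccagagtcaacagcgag
A match of 6 letters is a description of the sequence, and the arrays hold no binding data.

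*Lmx1b* (feature 17384190), a LIM homeodomain gene needed for the glutamatergic dorsal neurons that also express *Tlx3*, had nearly equal means. It was at 7.10, 7.00, 7.34, 7.19 and 7.31 in controls and at 7.07, 7.58, 6.96 and 7.14 in mutants. Mutant 2 was the highest and mutant 3 the lowest of the 9 arrays. The log2 fold change was 0.00 (SE 0.13, 95% interval −0.28 to 0.29, adjusted p = 0.998 in limma), and it ranged from −0.13 without mutant 2 to 0.08 without mutant 3. Over the 9 arrays the deviations of *Lmx1b* and *Tlx3* from their group means had a Pearson r of 0.75 (exact permutation within groups, p = 0.0698, adjusted p = 0.433 over 36 pairs; Spearman rho 0.62, p = 0.104, adjusted p = 0.731), which was 0.14 without mutant 2 and control 3. The relation rested on those arrays.

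*Lmx1a* (feature 17219127) is known foremost as a gene of the roof plate, the dorsal midline that secretes Bmp and Wnt proteins. It was at 5.16, 5.38, 4.91, 4.76 and 5.15 in controls and at 5.00, 5.25, 5.50 and 5.51 in mutants. Mutants 3 and 4 lay above all controls, the other two inside their range. This gave a log2 fold change of 0.24 (SE 0.15, 95% interval −0.07 to 0.56, adjusted p = 0.620 in limma, exact permutation p = 0.190). Its change differed from that of *Lmx1b* by 0.24 (95% interval −0.34 to 0.83, exact permutation p = 0.333). Of 9 measured roof plate genes, 7 were below 0, against 48.7% of all genes. Only *Zic1* (log2 fold change −0.26, adjusted p = 0.511 in limma) had an unadjusted p under 0.05, which 9.74% of all genes had. The roof plate genes next in order were the Wnt amplifier *Rspo3*, at 0.54 (SE 0.28), and the ligand *Wnt1*, at −0.27 (SE 0.16), neither past a threshold.

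*Lhx2* (feature 17370439) came nearest to a difference between groups. This LIM homeodomain gene guides the crossing of dorsal commissural axons. It was at 7.81, 7.81, 7.65, 7.79 and 7.44 in controls and at 7.37, 7.60, 7.35 and 7.58 in mutants. All 4 mutants were below the control mean, but control 5 was below mutants 2 and 4. The means were 7.70 ± 0.16 (SD, n = 5) and 7.47 ± 0.13 (SD, n = 4). The log2 fold change was −0.23 (SE 0.10, 95% interval −0.46 to 0.0037), or 0.855-fold. The unadjusted p was 0.0532 and the adjusted p 0.522 in limma, and the exact permutation p was 0.0556, where the smallest p that 5 arrays against 4 allow is 0.00794. In 7 of 20 alternative settings the unadjusted p was under 0.05, and in none did the adjusted p pass.

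*Lhx9* (feature 17227589), its close relative in the same dorsal class, had a difference of the same size. It was at 6.60, 6.40, 6.11, 6.67 and 6.08 in controls and at 6.19, 6.09, 6.09 and 6.23 in mutants. The 4 mutants sat close together at the lower end of the control range, beside controls 3 and 5. The log2 fold change was −0.22 (SE 0.13, 95% interval −0.51 to 0.07, adjusted p = 0.624 in limma, exact permutation p = 0.183). The changes of *Lhx2* and *Lhx9* differed by −0.01 (95% interval −0.25 to 0.24, exact permutation p = 0.960). This was the narrowest of the 4 paralogue intervals. LIM homeodomain proteins act in complexes with Ldb proteins. Of 10 genes for such cofactors 7 were below 0, against 48.7% of all genes. Only the Ldb-binding *Ssbp4* (−0.47, SE 0.15, adjusted p = 0.366 in limma) had an unadjusted p under 0.05, which 9.74% of all genes had.

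The Barhl genes, homeobox targets of Atoh1 in the dorsalmost class, gave no detectable difference. *Barhl2* (feature 17450536) was at 8.67, 9.27, 8.94, 8.87 and 8.65 in controls and at 8.86, 8.90, 8.50 and 8.57 in mutants, with a log2 fold change of −0.17 (SE 0.14, 95% interval −0.48 to 0.13, adjusted p = 0.726 in limma). That value was −0.076 without control 2 and −0.014 with the Y-linked mean as a covariate. *Barhl1* (feature 17383441) was at 7.13, 7.42, 6.94, 6.99 and 6.87 in controls and at 6.75, 7.00, 7.56 and 7.01 in mutants. Mutant 1 was the lowest and mutant 3 the highest array for *Barhl1*, so the mutants spanned the whole control range, while for *Barhl2* mutants 3 and 4 were below all controls. The *Barhl1* log2 fold change was 0.01 (SE 0.16, 95% interval −0.34 to 0.36, adjusted p = 0.994 in limma), and it was −0.15 without mutant 3. The changes of the 2 genes differed by 0.18 (95% interval −0.39 to 0.75, exact permutation p = 0.556).

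**Figure D2:**
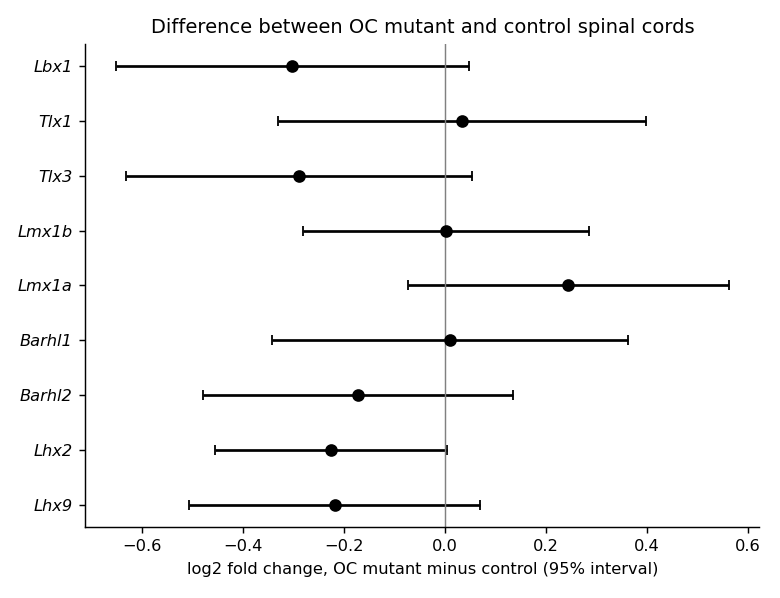
Log2 fold change of OC mutant against control spinal cords (horizontal axis) for the 9 measured genes, from limma on 5 and 4 arrays. Points are estimates and bars 95% intervals, all of which include 0; *Lhx2*, at −0.23, has the narrowest one.

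How the genes varied between embryos of 1 genotype was described next. Deviations from the group means were compared over the 9 arrays, for the 36 pairs among the 9 genes and, as a choice made after the data were seen, for 45 relations of the 9 genes with *Atoh1* and with the means of 4 marker lists. Both measures of a relation came from the same array, so they share its RNA and its normalization. Among the 36 pairs 1 had an unadjusted p under 0.05, *Lbx1* with *Barhl1* (r = −0.83, p = 0.0226, adjusted p = 0.433; rho = −0.92, p = 0.00417, adjusted p = 0.150; exact permutation within groups), and r was −0.57 without mutants 1 and 3. None of the 36 passed the adjusted p. Of the 45 relations 7 had an unadjusted p under 0.05 (exact permutation within groups) and 1 passed the adjusted p. Besides those given below, they were *Lmx1b* with the pan-neuronal mean (r = 0.74, p = 0.0365, adjusted p = 0.273) and relations with the dorsal progenitor mean. The latter were those of *Barhl1* (r = 0.72, p = 0.0233, adjusted p = 0.262) and *Lbx1* (r = −0.70, p = 0.0441, adjusted p = 0.283).

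*Lbx1* varied with the dorsal inhibitory genes, the only 1 of the 45 relations to pass the adjusted p, by r and not by rho. Its deviation had an r of 0.90 with the mean of the 18 genes of that list (exact permutation within groups, p = 6.94e-04, adjusted over 45 relations 0.0312, and rho = 0.90, p = 0.00486, adjusted p = 0.219). The list includes *Gad1*, *Gad2*, *Slc32a1* and *Slc6a5*, and in whole cords dorsal inhibitory neurons were not separated from other inhibitory neurons. The r was 0.93 over the controls, 0.91 over the mutants and 0.92 without mutants 1 and 3. It was 0.83 without control 1 and mutant 3, the arrays with the lowest pan-neuronal means. After quantile normalization r was 0.91, and its adjusted p of 0.0937 no longer passed. *Lbx1* also had an r of −0.88 with *Atoh1* (exact permutation, p = 0.00486, adjusted p = 0.104, and rho = −0.80, p = 0.0226, adjusted p = 0.239). That r was −0.87 without mutants 1 and 3, and −0.71 without control 1 and mutant 3. With the pan-neuronal mean the r of *Lbx1* was 0.76 (exact permutation, p = 0.0323, adjusted p = 0.273, and rho = 0.72, p = 0.0545, adjusted p = 0.239). This r was 0.92 over the controls, 0.66 over the mutants and 0.88 without mutants 1 and 3. Without control 1 and mutant 3 it was 0.36. What part the amount of neuronal tissue had in these relations was not tested.

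*Barhl1* was set against *Atoh1*, the bHLH gene of the progenitors of its class, and no relation of *Barhl1* passed the adjusted p. *Atoh1* was at 7.63, 7.51, 6.64, 7.32 and 6.41 in controls and at 6.57, 6.50, 7.98 and 6.93 in mutants, a log2 fold change of −0.10 (SE 0.33), and mutant 3 was the highest array for both genes. The r of *Barhl1* with *Atoh1* was 0.86 (exact permutation within groups, p = 0.00694, adjusted p = 0.104; rho = 0.78, p = 0.0312, adjusted p = 0.239), 0.75 over the controls and 0.93 over the mutants, and 0.71 without mutant 3 and control 2. *Barhl1* is transcribed from 2 starts in the RefSeq table, and both windows hold CAGCTG, an E-box that bHLH factors such as Atoh1 can bind; 16.3% of all windows hold it. The letters were in 2 of the 11 windows searched, both of them of *Barhl1*. The other E-box searched, CAGATG, was in 2 of the 11 windows and in 17.2% of all. The capitals mark CAGCTG in the stretches at chr2:28916742-28916787 (99 to 94 bases upstream of one start) and chr2:28912496-28912530 (15 to 10 bases upstream of the other), both on the minus strand.
Barhl1 first: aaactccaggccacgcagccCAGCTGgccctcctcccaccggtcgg
Barhl1 second: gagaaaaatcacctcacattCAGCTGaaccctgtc
The relation and the letters were looked at separately, and no binding was measured.

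**Figure D3:**
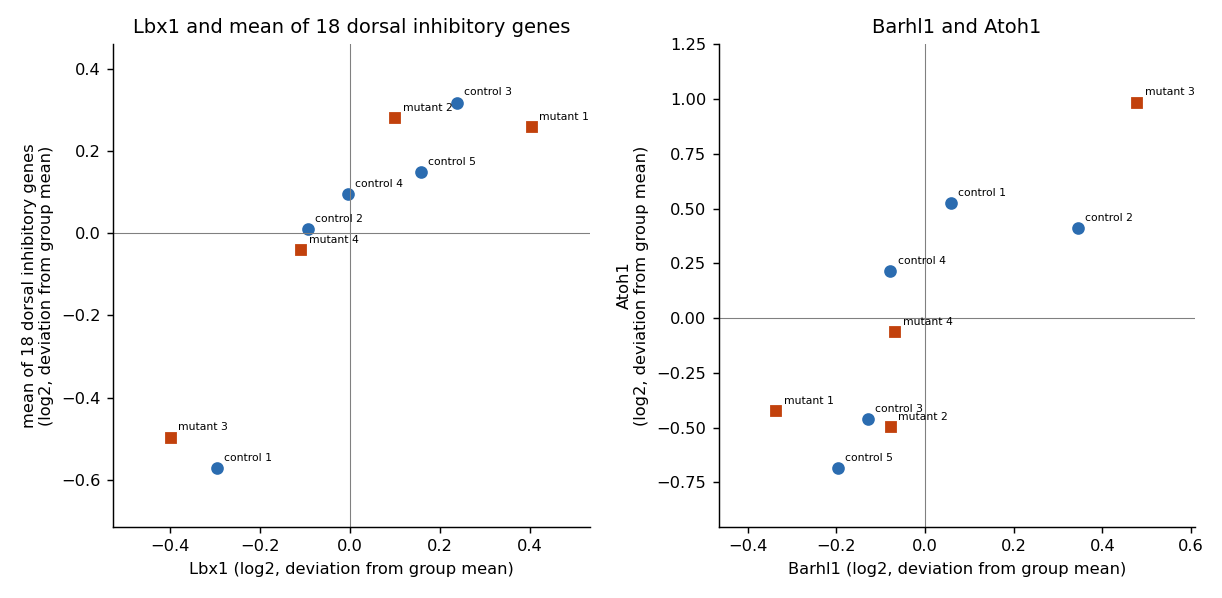
Deviation of each array's log2 signal from its group mean, for *Lbx1* (left, horizontal) against the mean of 18 dorsal inhibitory genes (vertical), and for *Barhl1* (right, horizontal) against *Atoh1* (vertical). Blue circles are controls (n = 5) and orange squares OC mutants (n = 4); r is 0.90 on the left and 0.86 on the right, with mutant 3 lowest for *Lbx1* and highest for *Barhl1*.

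Other genes of the dorsal excitatory neurons gave small differences as well. Of 17 measured genes that act in these neurons beside the 9, 13 were below 0 (median −0.08), against 48.7% of all genes. At an unadjusted p under 0.05 in limma 1 was lower, against 4.93% of all genes, and 0 were higher, against 4.81%. None passed the adjusted p in limma. The 1 gene was *Foxd3*, a forkhead factor of dorsal neurons and of neural crest, at 6.64, 6.96, 6.77, 6.83 and 6.48 in controls and at 6.38, 6.39, 6.36 and 6.55 in mutants (log2 fold change −0.32, SE 0.11, adjusted p = 0.390 in limma). Mutants 1 to 3 were below all controls, and mutant 4 was just above control 5. The next genes by p were *Isl1*, a LIM homeodomain gene of dorsal excitatory and of motor and sensory neurons, at −0.26 (SE 0.15), and the helix-loop-helix genes *Ebf1* and *Ebf3*, at −0.13 and −0.18. *Slc17a6*, which encodes the vesicular glutamate transporter of these neurons, was at −0.04 (SE 0.21), and *Prrxl1*, a homeobox gene of the *Tlx3* class, was at 0.00 (SE 0.10).

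Progenitor and inhibitory genes of the dorsal cord were read beside them. Over all genes 48.7% were below 0 and 9.74% had an unadjusted p under 0.05 in limma. Of 13 measured dorsal progenitor genes 8 were below 0 (median −0.02), and 1, *Zic1*, had an unadjusted p under 0.05. *Pax3*, a paired-box gene of all dorsal progenitors, was at 0.22 (SE 0.12, adjusted p = 0.559 in limma). Of 18 dorsal inhibitory genes 11 were below 0 (median −0.02) and 0 had an unadjusted p under 0.05 in limma, the lowest values of the list mean being those of control 1 and mutant 3. The relatives *Tlx2* and *Lbx2* were at −0.23 and 0.06, and neither passed. *Lbx1* is also known from muscle precursors that migrate to the limbs, and *Lmx1b*, *Lhx2* and *Lhx9* from limb mesenchyme. The mean of 13 muscle genes was 5.53 to 5.90 in controls and 5.32 to 5.89 in mutants. Of these 13, 9 were below 0, against 48.7% of all genes, and 2 were lower at an unadjusted p under 0.05, against 4.93%. They were the myogenic factor *Myog* (−0.54, SE 0.19, adjusted p = 0.400 in limma) and the troponin gene *Tnnt3* (−0.36, SE 0.11, adjusted p = 0.348 in limma). The groups of *Tnnt3* did not overlap, which held for 3.94% of all genes. Of the 16 mesenchymal genes 12 were below 0 and 0 had an unadjusted p under 0.05 in limma; what these tissues add to the 9 genes was not tested.

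**Figure D4:**
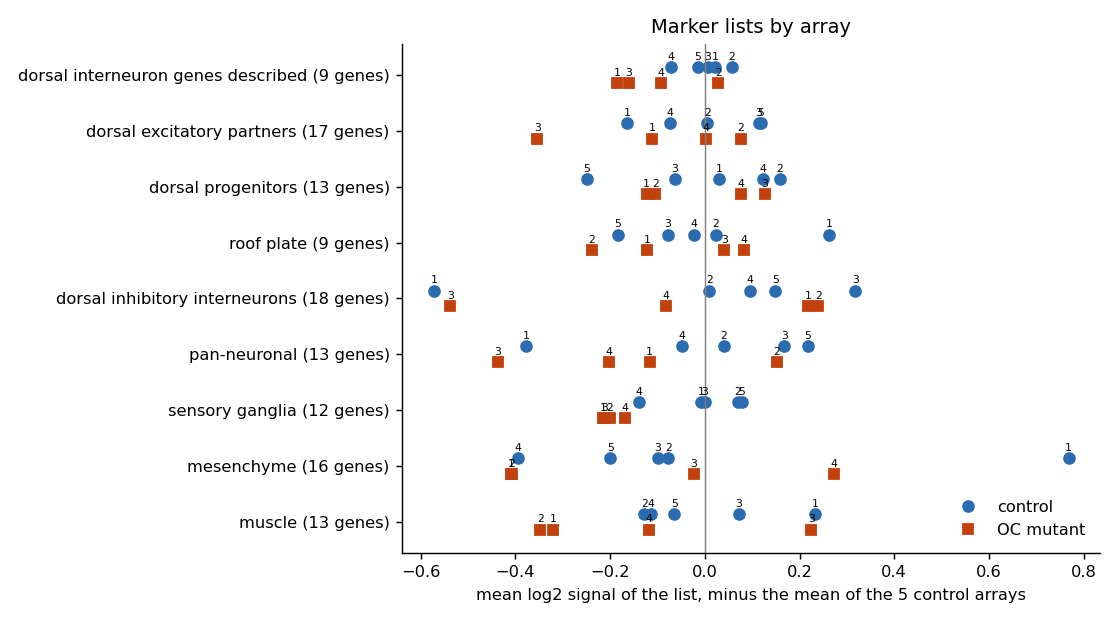
Mean log2 signal of 9 gene lists on each array, minus the mean of the 5 control arrays (horizontal axis), for control (blue circles, n = 5) and OC mutant (orange squares, n = 4) spinal cords. Numbers are replicate numbers. Control 1 and mutant 3 stand low for the inhibitory and pan-neuronal lists. Of the 9 lists shown the groups are separate for the sensory ganglion list, in which *Prph* and *Sncg* differ most.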

How the data were processed

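Total RNA of spinal cords was hybridised to arrays, and the authors deposited 1 table of log2 values with 41345 features for 9 arrays. The methods of background correction, summarisation and normalization are not given in the sources used here. A fold change is therefore one of deposited signal and may be compressed for dim features, and no gene's level was set against another's. The labels gave the groups. They do not say whether arrays came from separate litters, so p-values measure the spread between these arrays, whose number limits the precision.

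The platform annotation paired 23521 features with 1 symbol and 1820 with several, and 23328 matched a RefSeq table. Where a symbol had several features, the one with the highest mean was used. Tests were lmFit and eBayes of limma 3.58.1 (R 4.3.3), two-sided, with Benjamini-Hochberg adjustment over 22180 genes, and exact two-sided permutation over all 126 assignments of arrays. Relations were tested over all 2880 orders within groups. Paralogues were compared through their difference on each array. The limma fit was checked on simulated data with known changes. These were all larger than the estimates of the dorsal interneuron genes, so the check does not show what changes of their size could be detected.

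The genes and lists were chosen with earlier results of these data known. Named were all 10 genes, up to 4 genes of smallest p from a list, relatives, Onecut genes and genes that define a list. Alternatives were the mean of a gene's features, every feature, the dimmest genes left out, quantile normalization, median centring, trend and robust moderation, array weights, no moderation, a block for the replicate number, a Y-linked covariate and each array left out. Chosen after the data were seen were the pan-neuronal covariate, the relations with other genes, those without control 1 and mutant 3 or after quantile normalization, and the paralogue differences.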

Additional observations from a re-analysis of the deposited data

Results flagged for a closer look

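In each group the highest and the lowest array were compared with the nearest one, as a share of the group's range, for 63 genes and 126 groups, of which chance picks about 1 in 20. The check picked 7, and 0 of the 18 groups of the dorsal interneuron genes, whose largest ratio was 0.807. *Foxd3* stood apart in mutant 4 (6.55, ratio 0.877). Control 1 stood apart for *Rspo3* (7.20, ratio 0.814) and for *Bmp6*, a roof plate ligand (6.06, ratio 0.928). Control 3 stood apart for *Wt1*, a zinc finger gene of inhibitory neurons (5.96, ratio 0.789), for *Avil*, a sensory neuron gene (5.20, ratio 0.826), and for *Tcf21*, a mesenchymal gene (4.39, ratio 0.712). Mutant 4 stood apart for *Tcf21* as well (4.21, ratio 0.862).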

How the results depend on the processing

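Over 20 alternatives, none of the 9 genes passed the adjusted p, and *Lbx1*, *Tlx3*, *Lhx2*, *Lhx9*, *Barhl2* and *Lmx1a* kept their sign in all 20, *Barhl2* at −0.014 with the Y-linked covariate. The count at an unadjusted p under 0.05, which was 0, became 1 with quantile normalization, median centring, trend and robust moderation, or the pan-neuronal covariate, and 0 to 2 when 1 array was left out. Replicate numbers did not pair the samples (r of same-numbered arrays −0.21, −0.03, −0.24 and −0.11), and with the replicate block, which drops control 5, the count was 2. Values near 0 changed sign. *Lmx1b* was −0.020 with quantile normalization, −0.018 with median centring and −0.017 with the Y-linked covariate. *Barhl1* was −0.015 with quantile normalization, −0.010 with median centring, −0.055 with array weights, −0.040 with the replicate block and −0.080 with the pan-neuronal covariate. *Tlx1* was −0.10 with the Y-linked covariate. With 1 array left out, *Lmx1b* ranged from −0.13 to 0.077, *Barhl1* from −0.15 to 0.12, *Tlx1* from −0.051 to 0.15, *Lbx1* from −0.44 to −0.17, *Tlx3* from −0.44 to −0.22, *Lhx9* from −0.29 to −0.14, *Lmx1a* from 0.17 to 0.35 and *Barhl2* from −0.24 to −0.08. The causes were not tested. Over all genes 5 passed the adjusted p, 12 with array weights, 1 with the replicate block, 2 with the Y-linked covariate, 101 with the pan-neuronal covariate and 2 to 44 with 1 array left out (44 without mutant 3). The 95% intervals of the 9 genes reached from −0.65 to 0.56, and smaller changes, or changes in a few of the cord's cells, could not be seen with 5 and 4 arrays.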
